A study of Mus musculus with 22 samples.

Results

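Microglia lacking Trem2 were compared with wild-type microglia after both kinds of mice had been fed cuprizone, across every gene that could be tested. The comparison used 6 of the 22 arrays of the study: 3 labelled Trem2(-/-) with cuprizone only and 3 labelled WT with cuprizone only. Each array held RNA of microglia that had been sorted from digested, perfused brains, the gate taking cells that carry CD11b together with CD45 and F4/80. Cuprizone made up 0.2% of the feed. By the labels, the mice ate normal chow for 2 weeks and then the cuprizone feed for 4 weeks. The same genotypes on normal chow alone, 2 arrays of WT control and 2 of Trem2(-/-) control, served as the background, and no other agent was given to any of these 4 groups. The remaining arrays came from mice given Covi-Ox, a tocopherol mixture, with or without cuprizone. The labels give no age, sex or strain background, and do not say how the Trem2 allele was made, whether animals were pooled, or whether replicates are separate animals. The p-values below therefore measure only the spread between these samples, which may be technical. The knockout is written KO from here on.

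TREM2 is a surface receptor of microglia and other myeloid cells that binds lipids, lipoproteins and cell debris. It has almost no signalling tail of its own and passes its signal through the adaptor DAP12, encoded by Tyrobp, to the kinase SYK. Cuprizone kills oligodendrocytes, and microglia then take up the broken-down myelin. In models of this kind microglia lower the genes of their resting, homeostatic state and raise a group known as disease-associated microglia (DAM) genes, whose late stage is known from other work to need TREM2.

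The arrays carry probes along whole transcripts, and the values are RMA intensities, which were log2 transformed before testing. Of 19937 genes with a probe set of their own, 11830 passed the filter on low signal. Array medians ran from 36.1 to 38.6 across the 6 cuprizone arrays, so an intensity in the 30s or lower lies near the middle of the array, where little signal separates from background, and folds against such levels are not read as exact ratios. The sort markers Itgam, Ptprc and Adgre1, which encode CD11b, CD45 and F4/80, summed to between 2997 and 3561 on the 6 arrays, and none of the 3 was called. Markers of other cells were low or did not differ past the threshold, with 2 exceptions. Cspg4, of oligodendrocyte precursors, and Flt1, of endothelium, were called lower in KO, while Sox10, Cdh5 and Pecam1 of the same lists were not. Neutrophil markers summed to 2523, 1565 and 761 on the WT arrays and 3468, 2536 and 1128 on the KO arrays, with Mmp8, Cxcr2, Ly6g and Elane below the array median on all 6. In each genotype that sum was lowest on array 3. Border macrophage markers summed to 3460, 3375 and 2854 on the WT arrays and 4386, 2768 and 2163 on the KO arrays. These sums too were lowest on array 3 of each genotype. None of those 12 markers was called, and none lay below the array median on all 6. The part of either kind of cell in the results was not tested. A further feature cut across genotype: the mean log2 intensity of 29 immediate-early genes, which rise within minutes of cell stress or dissociation, lay at 8.25 for WT 3, 8.50 for KO 2 and 8.55 for KO 3, against 9.50 to 9.66 for the other 3 cuprizone arrays. In a principal component analysis of the 6 arrays the first component, 41.6% of the variance, separated the genotypes and set WT 3 furthest out. The second component, 28.8%, separated those 3 arrays from the others. Results are therefore also given as KO 1 minus the mean of WT 1 and 2, and as the mean of KO 2 and 3 minus WT 3, which compare arrays of similar immediate-early level. A fit without those 3 arrays keeps only KO 1 against WT 1 and 2, and assumes that this lone KO array varies as the other groups do. Calls gained or lost in that fit are given as counts and are no test of stability.

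Under cuprizone 450 of 11830 genes differed between the genotypes at an adjusted p under 0.05 (limma, Benjamini-Hochberg over all genes tested), which is 3.8%. Most of them were lower without Trem2: 353 genes fell (2.98% of those tested) and 97 rose (0.82%). The falls were also the larger changes. At least 2-fold lower were 90 genes and at least 4-fold lower 21, against 4 and 1 in the other direction. The median difference was -0.66 among genes called lower and 0.52 among genes called higher, beside -0.01 over all genes, all on the log2 scale. The 3 arrays of one genotype lay wholly above the 3 of the other for 438 of the called genes (345 lower, 93 higher in KO), and for 20.7% of all genes tested (11.6% with KO below, 9.04% with KO above). On chow, with 2 against 2 arrays, 36.8% did not overlap. The count depended on single arrays: leaving out WT 3 gave 273 calls, leaving out KO 2 gave 249 and leaving out KO 3 gave 207, and 141 genes (128 lower, 13 higher) were called whichever of the 6 was left out. Quantile normalization of the values moved the share of rises among the calls from 21.6% to 36.5%, and centring each array on its median moved it to 7.17%.

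**Figure D1:**
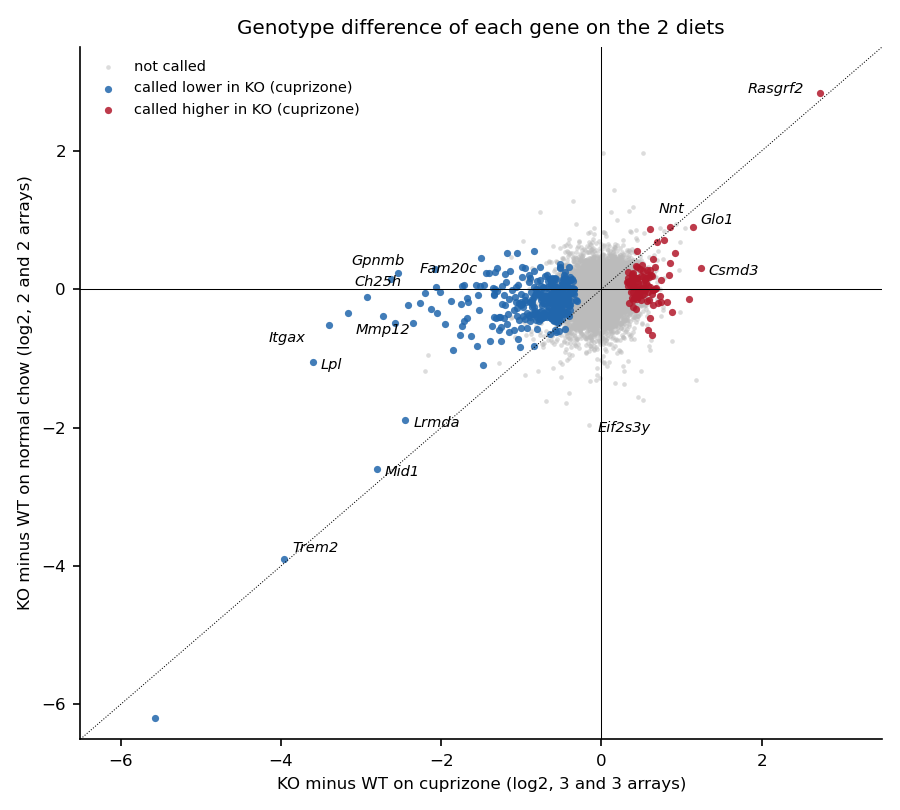
Each point is one of the 11830 genes, with its KO minus WT difference under cuprizone on the horizontal axis (log2, 3 against 3 arrays) and on normal chow on the vertical axis (log2, 2 against 2 arrays). Blue and red mark genes called lower and higher in KO under cuprizone, and the dotted line marks equal differences. Trem2, Mid1, Lrmda, Nnt and Rasgrf2 lie near the line, while Lpl, Itgax, Mmp12 and Gpnmb lie far to the left at a chow difference between -1.05 and 0.15. The unlabelled point at the lower left is the clone G530011O06Rik.

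Trem2 itself checked the labels. Its intensity was 1357, 1336 and 1724 on the WT cuprizone arrays and 92.9, 96.5 and 93.0 on the KO cuprizone arrays, 15.5-fold lower (-3.96 ± 0.11 on the log2 scale, adjusted p = 6.56e-15, limma). No array of either genotype lay near the other. On chow the values were 1294 and 1336 in WT and 89.8 and 87.4 in KO, a difference of -3.89. The differences on the 2 diets were -0.07 ± 0.18 apart (adjusted p = 0.941, limma). Tyrobp, the adaptor that TREM2 needs at the membrane, was 4682, 4529 and 4689 in WT and 4216, 4622 and 4733 in KO, and the genotypes overlapped (-0.04, adjusted p = 0.85, limma). Among 28 tested genes of the TREM2 and DAP12 signalling list only Trem2 and Ctnnb1 passed the test, beside 3.8% of all genes. Trem2 is the deleted gene itself, and Ctnnb1 alone is too little to be read as a result about the list. Ctnnb1 encodes beta-catenin, which TREM2 signalling is known to stabilise as a protein, while the arrays measure RNA. The Ctnnb1 values were 405, 382 and 461 in WT and 241, 294 and 298 in KO, lower on every KO array (-0.58 ± 0.10 on the log2 scale, adjusted p = 0.00276, limma). The kinase gene Syk (-0.22, adjusted p = 0.468), the phospholipase gene Plcg2 (0.06, adjusted p = 0.842), the phosphatase gene Inpp5d (0.09, adjusted p = 0.706), and Adam10 and Adam17, whose products shed the receptor, were not called by limma. The genes Trem2 has as neighbours on chromosome 17 were checked as well, 15 tested genes on each side. Treml4, Apobec2 and 1700001C19Rik were called higher, by 0.69, 0.85 and 0.46, and the remaining 27 were not, beside 0.82% higher over all genes. When each cuprizone array was left out in turn, Treml4 kept its call in 2 of the 6 fits, 1700001C19Rik in 3 and Apobec2 in 5. Treml4, which encodes a related receptor, was low on all arrays, at 23, 19.3 and 30.0 in WT and 30.8, 51.8 and 34.9 in KO.

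The late DAM genes had the lowest median of the 25 pathway lists. Of 25 listed, 21 were tested, and 17 were lower in KO, beside 2.98% of all genes, while none was higher. Their median difference was -1.68, beside -0.01 over all genes and -0.20 for the same list on chow. All 17 had every KO array below every WT array, as had 11.6% of all genes tested. The mean log2 intensity of the list was 8.87, 8.96 and 9.81 on the WT cuprizone arrays and 7.49, 7.56 and 7.57 on the KO cuprizone arrays. On chow it was 7.31 and 7.40 in WT and 7.11 and 7.03 in KO, so the KO arrays under cuprizone sat just above the chow arrays. Since these are bulk samples, fewer cells in a DAM state and less of each RNA per cell cannot be told apart.

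Itgax encodes CD11c, an integrin chain that marks this state. Its intensities were 303, 357 and 743 in WT and 42.1, 45.4 and 35.7 in KO, 10.6-fold lower (-3.40 ± 0.23 on the log2 scale, adjusted p = 7.09e-09, limma). WT 3 was the highest, and the KO arrays lay near the chow arrays, which read 45.4 and 44.5 in WT and 31.2 and 31.6 in KO. Cst7, encoding cystatin F, an inhibitor of lysosomal proteases, read 915, 1147 and 3455 in WT and 158, 285 and 384 in KO (-2.57 ± 0.36 on the log2 scale, adjusted p = 0.000235, limma). Here the KO arrays lay above their chow values of 73.5 and 55.6 without reaching WT. Clec7a encodes Dectin-1, a receptor for fungal glucans that signals through SYK. It measured 393, 408 and 799.5 in WT against 93.6, 95.6 and 109 in KO (-2.35 ± 0.18 on the log2 scale, adjusted p = 7.98e-08, limma), so the KO arrays were tightly grouped well under WT. Axl, a receptor tyrosine kinase for apoptotic cells, gave 353, 401 and 876 in WT and 85.7, 101 and 94.0 in KO (-2.42 ± 0.22 on the log2 scale, adjusted p = 5.69e-07, limma). Gpnmb, a glycoprotein of lysosomes and phagosomes, gave 144, 172 and 469 in WT and 26.7, 50.1 and 37.5 in KO (-2.62 ± 0.30 on the log2 scale, adjusted p = 2.32e-05, limma), with 2 of the 3 KO arrays under their array median. Csf1, the ligand of the CSF1 receptor on which microglia depend, was 757, 823 and 839.5 in WT and 268, 169 and 138 in KO (-2.13 ± 0.20 on the log2 scale, adjusted p = 1.76e-06, limma). The WT arrays were close together here, while for Itgax, Cst7, Axl and Gpnmb WT 3 stood well above the other 2. The remaining called members ranged down to Cadm1, at -0.55. Cd9, Timp2, Ctsl and Cd63 were the 4 not called, with differences from -0.50 to -0.05.

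Levels of the list in KO were also set against chow. For 19 of the 21 genes the KO cuprizone mean was above the KO chow mean, as for 50.8% of all genes tested. For 8 all 3 KO cuprizone arrays were above both KO chow arrays, as for 10.6% of all. The KO cuprizone mean was above the WT chow mean for 14, and for 45.1% of all. These are levels with no test. For all 17 called genes the KO cuprizone arrays lay below the WT cuprizone arrays and also below the 3 WT arrays given cuprizone together with Covi-Ox. They lay below the latter for 14.1% of all genes tested. Those 3 WT arrays entered the fit only through the shared spread. The 17 were chosen on the same KO cuprizone arrays, which favours this count. With only the 6 cuprizone arrays in the fit, in place of all 22, 6 of the 21 genes kept a call, and the adjusted p was 0.105 for Cst7, 0.0509 for Gpnmb and 0.204 for Ch25h (limma). Early DAM genes, which rise without TREM2 in other models, gave 3 falls among 9 tested, beside 2.98% of all genes, and a list median of -0.18. These were Cd52 (-1.40, adjusted p = 1.53e-05), the protease inhibitor gene Cstb (-1.09, adjusted p = 0.000286) and Apoe (-0.66, adjusted p = 0.007, limma). Apoe, the main lipid carrier of the brain, read 6494, 6141 and 6737 in WT and 4871, 3507 and 4006 in KO. It kept its call whichever cuprizone array was left out. With the immediate-early covariate its difference was -0.62 (adjusted p = 0.00787, limma). Without the 3 arrays low in immediate-early genes, where KO 1 is the only KO array, it was -0.37. Tyrobp, Ctsd, B2m, Fth1, Lyz2 and Ctsb of the same list were not called.

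**Figure D2:**
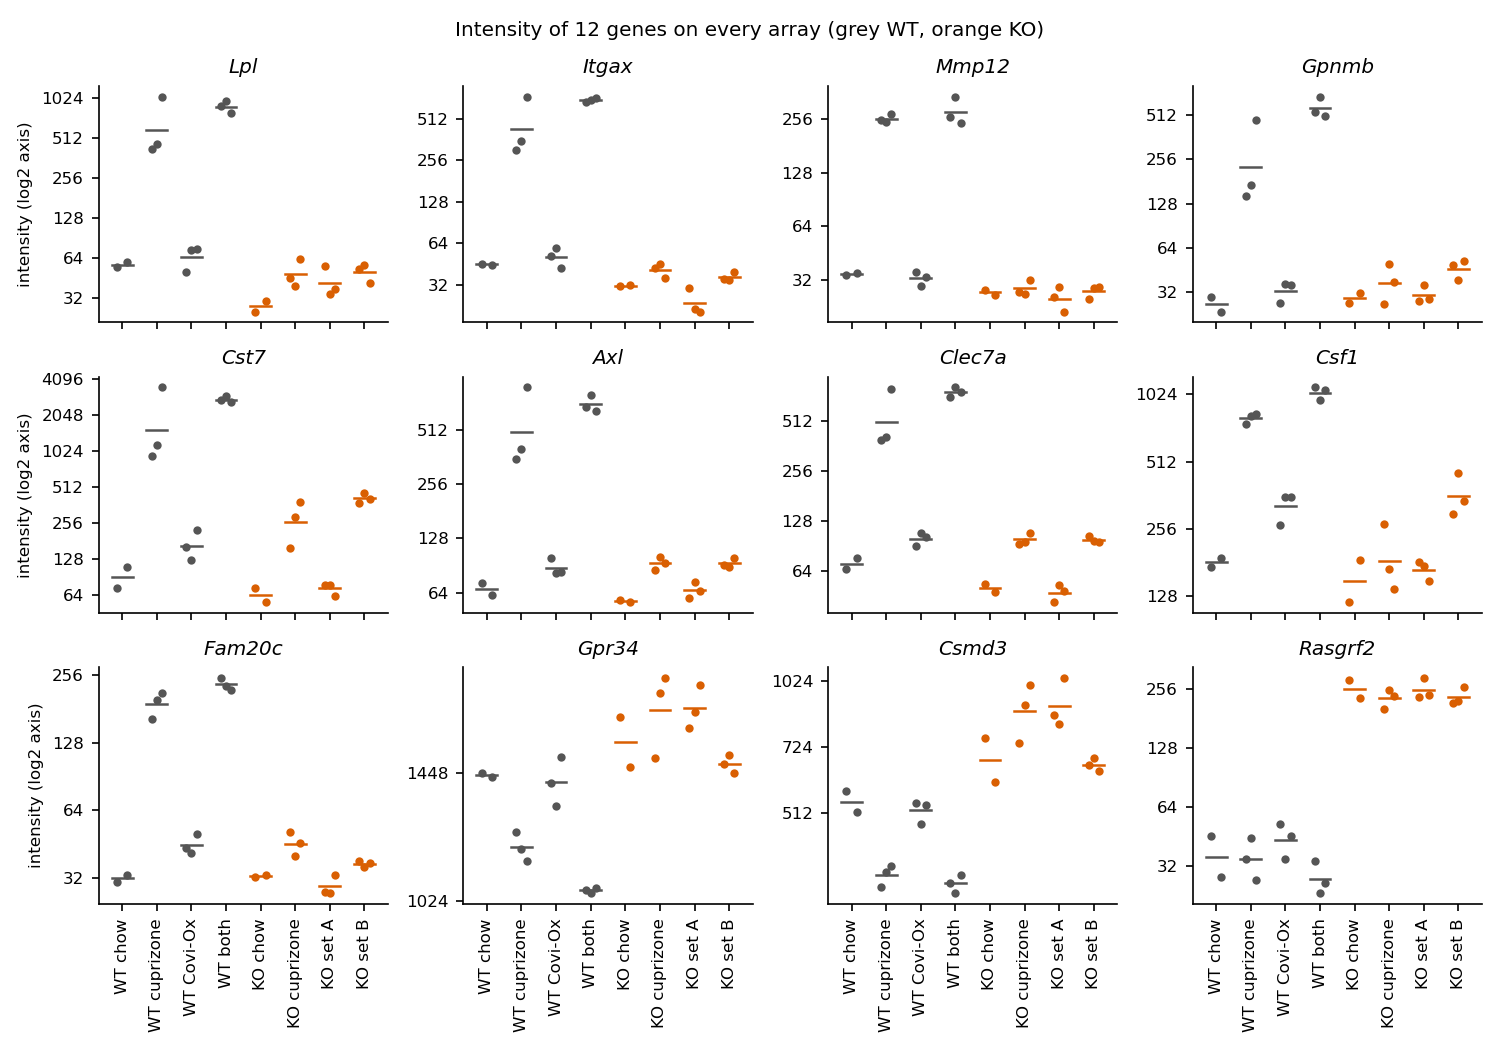
Intensity of 12 named genes on all 22 arrays, one dot per array and a bar at each group's geometric mean, on a log2 axis whose range differs between panels. Grey dots are WT and orange dots KO, and set A and set B are KO arrays whose diet labels contradict each other. Mmp12 and Fam20c are high only where WT mice ate cuprizone, with or without Covi-Ox, and Rasgrf2 is high on all 11 KO arrays.

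Promoter sequence was looked at for these genes because their members moved together. Of the 17 called late DAM genes, 13 had a window in the RefSeq table of assembly GRCm38.p6 (250 bases before to 50 after each annotated start). The letters TGANTCA, which AP-1 factors bind, stood on either strand in the windows of 6 of these 13 genes (46.2%): Cst7, Cybb, Gpnmb, Igf1, Itgax and Plaur. In Cst7 and Gpnmb the match was not before the start. They stood in 6.22% of the tested genes with a window, in 10.1% of genes called lower and in 10.8% of genes called higher. In the interferon-response list, described below, they stood in 8 of 23 tested genes (34.8%) and in 2 of the 9 called lower (22.2%). The letters are thus not particular to the late DAM genes. The Itgax promoter is shown since the gene had the second-lowest value of the list, and that of Mmp12 since it is described next and holds the same letters; capitals mark TGANTCA, and in Mmp12 also the E-box variant CATGTG read from the other strand. Both sequences are the 250 bases before the start, given on the strand of the gene, at chr7:128129300-128129549 for Itgax and chr9:7347124-7347373 for the second of 2 annotated Mmp12 starts.
Itgax: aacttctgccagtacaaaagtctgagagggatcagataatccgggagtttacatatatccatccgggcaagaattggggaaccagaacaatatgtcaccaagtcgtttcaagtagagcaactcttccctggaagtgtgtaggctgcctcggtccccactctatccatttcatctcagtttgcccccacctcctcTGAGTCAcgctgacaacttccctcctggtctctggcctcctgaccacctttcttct
Mmp12: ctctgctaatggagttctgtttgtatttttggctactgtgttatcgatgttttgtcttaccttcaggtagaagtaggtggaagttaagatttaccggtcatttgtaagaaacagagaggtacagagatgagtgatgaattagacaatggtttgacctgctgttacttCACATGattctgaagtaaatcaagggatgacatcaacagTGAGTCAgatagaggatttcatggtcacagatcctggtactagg
The E-box CACGTG, which MITF, TFEB and the repressor BHLHE40 can bind, stood in 11.8% of genes called lower and 11.7% of tested genes, and CATGTG in 10.1% and 11.0%. In genes called higher the shares were 14.9% and 18.9%, of 74 genes with a window. These are matches of letters and say nothing on binding.

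Lipid handling genes were among the deepest falls. Lpl encodes lipoprotein lipase, which releases fatty acids from lipoproteins. It measured 420.2, 464 and 1046 in WT and 45.7, 39.4 and 63.1 in KO, 12.2-fold lower (-3.60 ± 0.27 on the log2 scale, adjusted p = 4.14e-08, limma). Ch25h makes 25-hydroxycholesterol, an oxysterol signal. Its values were 96.3, 136 and 978 in WT and 27.5, 35.8 and 29.5 in KO (-2.93 ± 0.49 on the log2 scale, adjusted p = 0.00162, limma). WT 3 was far above the other WT arrays, and without it the difference was -1.90. KO 1 against WT 1 and 2 gave -2.06, and KO 2 and 3 against WT 3 gave -4.91. Fabp5, a fatty acid binding protein, read 246, 279 and 696 in WT and 114, 69.1 and 54.4 in KO (-2.27 ± 0.30 on the log2 scale, adjusted p = 9.67e-05, limma). Apoc1, an apolipoprotein encoded next to Apoe, spread widely, with 154, 222 and 1042 in WT and 33.1, 96.1 and 148 in KO. Its fall (-2.08, adjusted p = 0.0245, limma) was lost when WT 3, KO 1 or KO 2 was left out. Olr1, the receptor for oxidised LDL, read 74.6, 39.8 and 43.1 in WT and 20.7, 17.5 and 23.7 in KO, where all 3 arrays were under their median (-1.30 ± 0.18 on the log2 scale, adjusted p = 0.000192, limma). Nceh1, which frees cholesterol from its esters, fell by 1.35 and Plin2, which coats lipid droplets, by 0.75. In all, 4 of 14 tested genes of lipid uptake and droplets fell, and 4 of 16 of cholesterol efflux, with none higher in either, beside 2.98% lower over all genes. Lpl, Fabp5, Ch25h and Nceh1 of these are also counted in the late DAM list. The cholesterol exporters were not among them: Abca1 differed by -0.14 (adjusted p = 0.51) and Abcg1 by -0.25 (adjusted p = 0.442, limma). None of 17 cholesterol synthesis genes was called by limma, and the list median was -0.16 under cuprizone and -0.23 on chow.

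Genes of the matrix and growth factor list followed. Mmp12, the macrophage elastase, had little spread within either genotype: 254, 245 and 273 in WT and 27.4, 26.8 and 32.2 in KO, 8.95-fold lower (-3.16 ± 0.13 on the log2 scale, adjusted p = 2.40e-12, limma). Every KO array was under its array median. Fam20c, the kinase of secreted proteins, was 164, 198 and 214 in WT and 51.2, 40.1 and 45.9 in KO (-2.07 ± 0.12 on the log2 scale, adjusted p = 5.29e-10, limma). Fibronectin, from Fn1, was by contrast 112, 145 and 1061 in WT, so that WT 3 stood far above the others, and 46.6, 39.6 and 32.5 in KO (-2.72 ± 0.48 on the log2 scale, adjusted p = 0.0025, limma). Without WT 3 the difference was -1.70, and with the 6 cuprizone arrays alone the adjusted p was 0.216. Capg, which caps actin filaments, read 222, 221 and 525 in WT and 62.4, 89.1 and 47.4 in KO (-2.20, adjusted p = 2.73e-05, limma). Both Lgals3 (galectin-3) and Igf1 (insulin-like growth factor 1) are picked out here after their values were seen. Lgals3 was 307, 359 and 403 in WT and 92.1, 83.6 and 88.2 in KO (-2.01, adjusted p = 3.34e-09), and Igf1 was 129.7, 134 and 278 in WT and 65.1, 45.5 and 46.3 in KO (-1.71, adjusted p = 4.06e-05, limma). Of 24 tested matrix and growth factor genes 10 fell, beside 2.98% of all genes, and none rose. Of these 10, Csf1 and Igf1 are also counted in the late DAM list and Vegfa in the glycolysis and hypoxia list. The median of the 24 was -0.73 under cuprizone and -0.05 on chow. The count was 8 without the 3 arrays low in immediate-early genes.

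Among transcription regulators Bhlhe40, a repressor of the basic helix-loop-helix family, fell most. It measured 44.6, 56.6 and 177 in WT and 18.8, 9.82 and 12.4 in KO (-2.54 ± 0.35 on the log2 scale, adjusted p = 0.000192, limma), and only WT carried it above the array median. Mitf, a regulator of lysosome genes, was 179, 202 and 179 in WT and 103, 139 and 151 in KO (-0.53, adjusted p = 0.013, limma), a call lost when WT 2 was left out. Irf8, which microglia need to develop, differed by -0.37. Tfeb, Tfe3, Spi1, Runx1 and Cebpa were not called. Of 39 lysosome genes 6 fell, beside 2.98% of all genes, and none rose, with a median of -0.14. The called members were Atp6v0d2 and Atp6v1b2 of the proton pump, the cathepsins Ctse and Ctsz, and the enzymes Gla and Neu1. Gla, alpha-galactosidase, was 216, 229.6 and 369 in WT and 156, 142 and 144 in KO (-0.84, adjusted p = 0.007, limma). Without the 3 arrays low in immediate-early genes none of the 39 was called by limma (median -0.19), and 11 were with a covariate for the immediate-early level of each array. Leaving out WT 3 or KO 2 left 3. Among widely used lysosome markers, Cd68 stood at -0.03, Lamp1 at -0.06, Ctsd at 0.05 and Grn at -0.09, and none of these was called.

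Chemokine and interferon genes were also among the falls. Of 18 chemokine genes 7 fell, beside 2.98% of all genes, none rose and the median was -0.75. Among these 7, Ccl6 is also counted in the late DAM list and Cxcl10 in the interferon-response list. The 7 became 5 without WT 3, 3 without KO 2 or without KO 3 and 2 without all 3. Cxcl16, a transmembrane chemokine that also takes up oxidised lipids, read 450.3, 492 and 532 in WT and 215, 207 and 212 in KO (-1.21 ± 0.10 on the log2 scale, adjusted p = 1.72e-07, limma), with narrow groups far apart. Cxcl10 measured 689, 756 and 263 in WT and 449.8, 124 and 83.7 in KO, and the genotypes overlapped. Its WT 3 value was the lowest of WT, and its call (-1.62, adjusted p = 0.0445, limma) was lost without WT 1, WT 2, KO 2 or KO 3. Il1b, the inflammatory cytokine, spread more widely, at 1240.0, 1127 and 97.3 in WT and 604, 47.2 and 49.5 in KO, and did not pass (-2.20, adjusted p = 0.132, limma). Of 29 interferon-response genes 9 fell, again beside 2.98% of all genes, and none rose. The list median was -0.62, beside -0.15 on chow. A negative difference was seen in 28 of the 29, and in 6217 of all 11830 genes. Lgals3bp, a secreted glycoprotein, read 1547, 1579 and 2738 in WT and 536, 983 and 952 in KO (-1.25 ± 0.24 on the log2 scale, adjusted p = 0.00499, limma). Bst2, which tethers enveloped viruses to the cell, was 664, 716 and 1356 in WT and 390.4, 553 and 373 in KO (-1.0 ± 0.20 on the log2 scale, adjusted p = 0.00765, limma), with no overlap and WT 3 highest. Ifit2, which binds viral RNA, was 84.8, 87.3 and 233 in WT and 63.4, 55.9 and 44.1 in KO (-1.16, adjusted p = 0.02, limma). Without the 3 arrays low in immediate-early genes its difference was -0.44 (adjusted p = 0.514, limma). The interferon count fell to 4 without WT 3, 5 without KO 2, 3 without KO 3 and 2 without all 3 arrays. In antigen presentation 2 of 11 class I genes fell (H2-M3 and Psme1) and 2 of 12 class II and costimulation genes (H2-DMa and Cd274), while H2-Aa (-0.04), H2-Ab1 (-0.05) and B2m (0.02) were not called.

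The interferon element, GAAA and GAAA parted by any 2 bases, which is bound by interferon regulatory factors and the ISGF3 complex, stood on either strand in the promoter windows of 14 of 23 tested interferon genes (60.9%), of 4 of the 9 called ones (44.4%) and of 3.64% of the tested genes with a window. The list was chosen for its interferon response, so this describes the list rather than the knockout. Bst2 is shown as the called member with overlapping matches, in capitals, again as the 250 bases before the start on the strand of the gene, at chr8:71537473-71537722.
Bst2: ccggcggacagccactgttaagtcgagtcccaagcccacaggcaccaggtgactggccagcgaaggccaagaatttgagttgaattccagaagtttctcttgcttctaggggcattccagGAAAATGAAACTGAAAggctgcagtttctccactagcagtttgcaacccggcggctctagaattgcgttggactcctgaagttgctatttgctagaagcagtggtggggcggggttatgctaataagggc

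Glycolysis and hypoxia genes fell in larger number than the other metabolic lists. Of 18 tested, 10 were lower in KO, beside 2.98% of all genes, and none was higher. All 18 had a negative difference, as had 6217 of all 11830 genes, and the list median was -0.68, beside -0.29 on chow. Slc2a1, the glucose transporter GLUT1, was 461, 552 and 562 in WT and 300.1, 295 and 249.5 in KO (-0.90 ± 0.13 on the log2 scale, adjusted p = 0.000242, limma). Its genotypes were well apart and WT 3 did not stand out. The enzyme genes Tpi1 (379.5, 370.4 and 541 in WT, 198, 219 and 181 in KO) and Pgk1 (495, 474 and 901 in WT, 313, 249.5 and 241 in KO) were highest on WT 3 and differed by -1.09 and -1.16. Egln3, an oxygen-sensing hydroxylase that hypoxia induces, was 61.0, 43.8 and 187 in WT and 24.8, 27.7 and 30.1 in KO, all 3 KO arrays under their median (-1.53, adjusted p = 0.00948, limma). Hif1a itself was not called (-0.39, adjusted p = 0.0927, limma), nor were Hk1, Hk2, Pfkl and Ldha. The count was 2 without the 3 arrays low in immediate-early genes, with a list median of -0.51. Of 30 oxidative phosphorylation genes all had a negative difference, the median was -0.30 and only Atp5b was called.

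**Figure D3:**
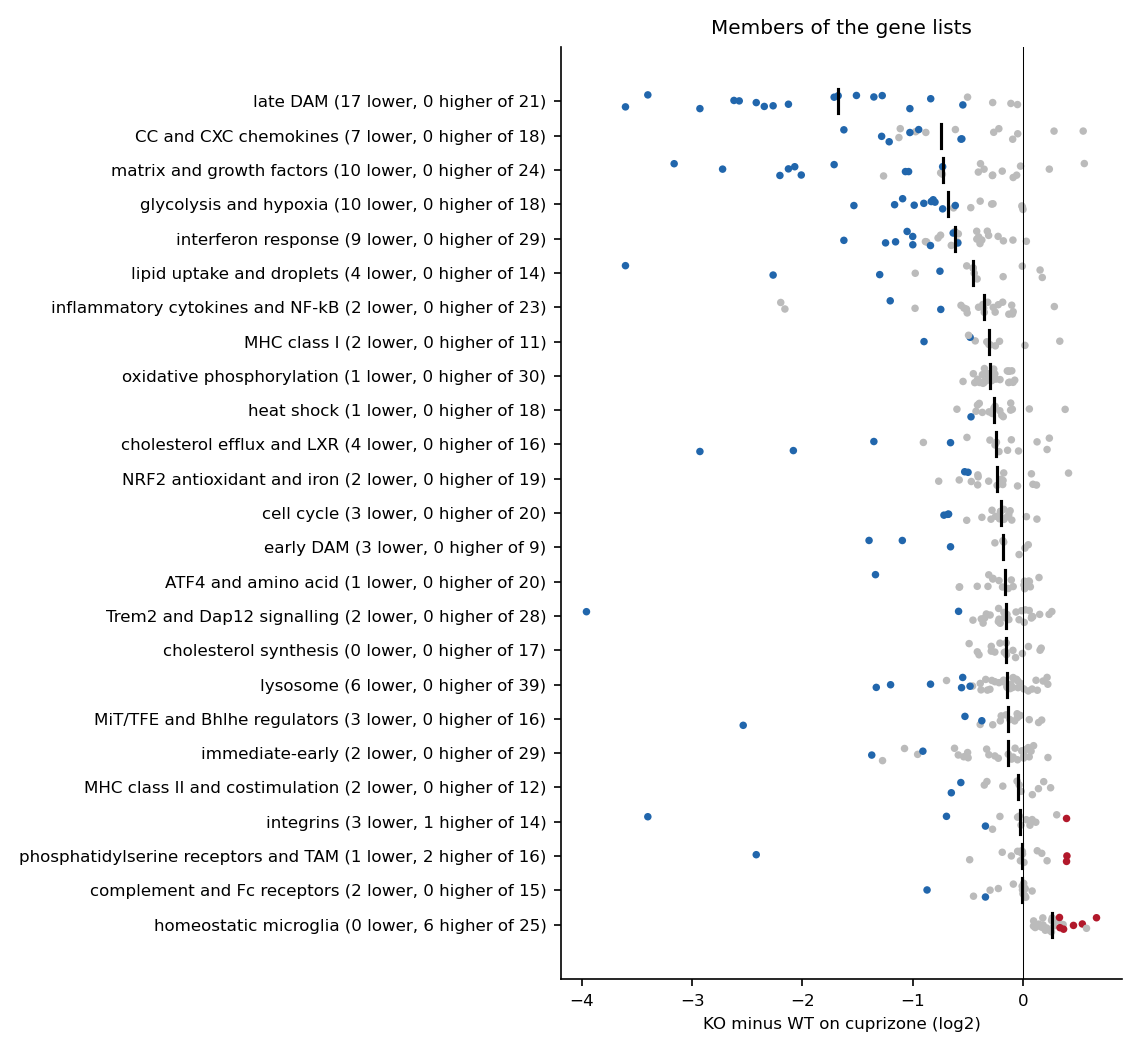
Each dot is a tested member of one of 25 gene lists, placed by its KO minus WT difference under cuprizone (log2); blue dots were called lower, red dots higher and grey dots not called, and the black bar marks the list median. The late DAM list has the lowest median, -1.68, the single lowest dot is Trem2 in the signalling list, and the homeostatic list is the one with all members right of 0.

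Other lists held 1 to 3 falls and no rise, beside 2.98% lower over all genes: 3 of 20 cell cycle genes (Birc5, Ube2c and Mcm6), 2 of 19 antioxidant genes (Gsr and Sod2), 1 of 20 amino acid response genes (Asns), 1 of 18 heat shock genes (Hspd1), 2 of 23 inflammatory genes (Il1rn and Tlr2) and 2 of 15 complement and Fc receptor genes (Itgb2 and Fcgr4). Counts of 1 to 3 genes are too few to be read as a result about these lists, also where the share is above 2.98%. Of the genes just named only Il1rn and Tlr2 kept their call whichever cuprizone array was left out. Tlr2, the receptor for bacterial lipoproteins, was one of the tighter falls, with 939.6, 1026 and 948 in WT and 621, 591 and 528 in KO (-0.75 ± 0.09 on the log2 scale, adjusted p = 4.36e-05, limma). Complement C1qa, C1qb and C1qc, made in large amounts by microglia, differed by 0.01, -0.01 and -0.0011 and were not called. Of 14 integrin genes Itgax, Itga5 and Itgb2 fell and Itgav rose; Itgam was not called (0.08, adjusted p = 0.686, limma). In the list of phosphatidylserine receptors Axl fell, while Itgav (0.39, adjusted p = 0.0104) and Elmo1 (0.40, adjusted p = 0.0324, limma), an adaptor of engulfment, rose. Mertk, the other large microglial receptor of the Axl family, was not called (0.17, adjusted p = 0.573, limma). Among 29 immediate-early genes, Egr2 and Maff were called lower with overlapping genotypes, and Fos differed by 0.01.

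Homeostatic microglia genes had differences of the opposite sign. All 25 tested had a positive difference, as had 5613 of all 11830 genes. The list median was 0.26, beside 0.01 on chow, and 6 of the 25 passed the test. Background for rises was 0.82%. P2ry12, the purinergic receptor that directs microglial processes, read 3041, 2779 and 2667 in WT and 3334, 3650.4 and 3713 in KO (0.33 ± 0.08 on the log2 scale, adjusted p = 0.0238, limma). Every KO array was above every WT array. Gpr34, a lysophosphatidylserine receptor, was 1235, 1179 and 1141 in WT and 1507, 1797 and 1874 in KO (0.54 ± 0.09 on the log2 scale, adjusted p = 0.00243, limma). Among the 6 called genes it was the only one whose call held whichever cuprizone array was left out, and 1 of the 25 was called without WT 3, without KO 2 or without KO 3. P2ry13 rose by 0.46, Siglech by 0.37, Upk1b by 0.67 and Tmem119 by 0.33 (adjusted p = 0.0484, limma). Cx3cr1, the fractalkine receptor, was 4743, 4551 and 3936 in WT and 4935, 5284 and 5826 in KO without overlap, but missed the threshold (0.28, adjusted p = 0.0825, limma), as did Csf1r (0.11, adjusted p = 0.447). The list mean on the log2 scale was 10.65, 10.64 and 10.36 on the WT cuprizone arrays and 10.70, 10.89 and 10.91 on the KO cuprizone arrays, and 10.76 to 10.89 on the 4 chow arrays. KO 1 therefore lay nearest to WT. The median over the list was 0.06 for KO 1 against WT 1 and 2 and 0.50 for KO 2 and 3 against WT 3, and limma called none of the 25 with KO 1 as the only KO array, where the other groups supply the spread.

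**Figure D4:**
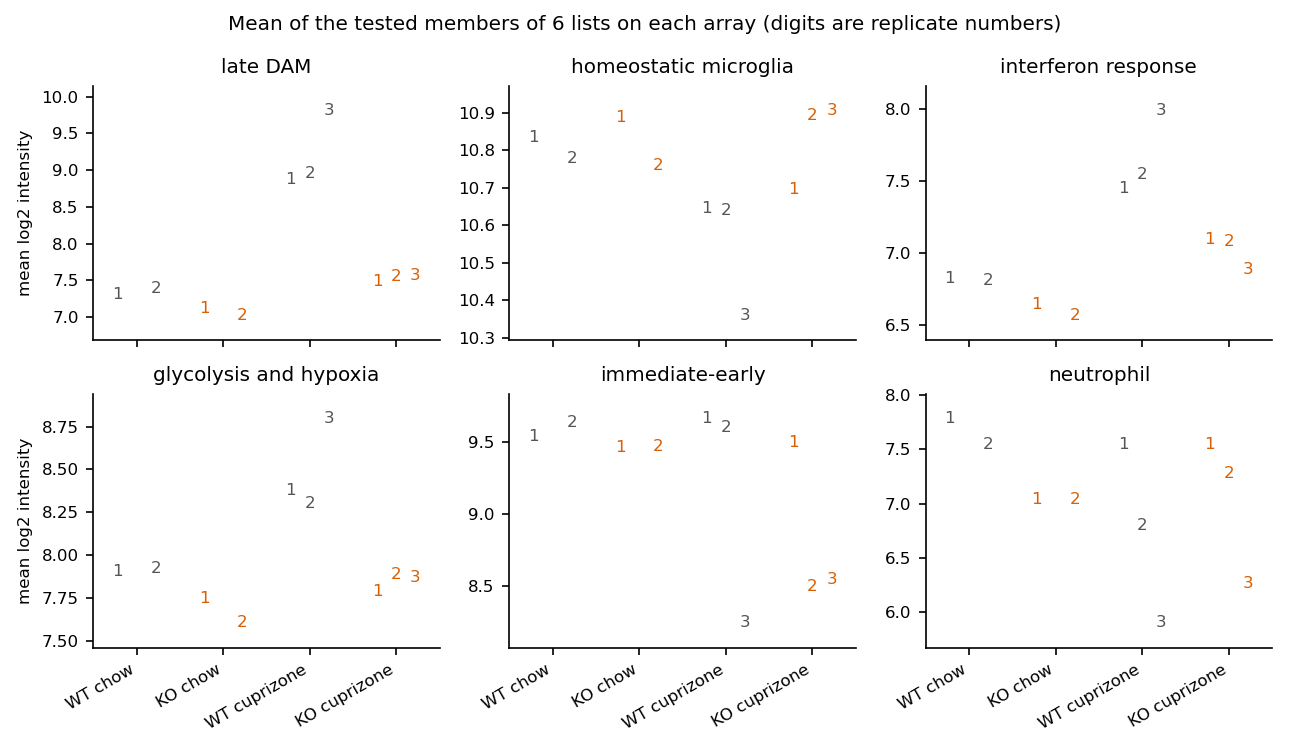
Mean log2 intensity of the tested members of 6 lists on each cuprizone and chow array, drawn as the replicate number in grey for WT and orange for KO; the vertical range differs between panels. The late DAM means of the KO cuprizone arrays, 7.49 to 7.57, are under all 3 WT cuprizone arrays, and the immediate-early panel shows WT 3, KO 2 and KO 3 at 8.25 to 8.55.

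The largest rises outside that list were few. Rasgrf2, a Ras exchange factor on chromosome 13, was 34.6, 44.3 and 27.0 in WT and 201, 250.3 and 236 in KO, 6.59-fold higher (2.72 ± 0.20 on the log2 scale, adjusted p = 4.01e-08, limma). It was as high in KO on chow, at 282 and 230.0 against 45.5 and 28.0 in WT. Csmd3, a large membrane protein with complement-control domains, was 348, 376 and 389 in WT and 739.7, 899 and 1000.3 in KO (1.24 ± 0.12 on the log2 scale, adjusted p = 2.08e-06, limma). On chow it differed by 0.31, and the diets differed from each other by 0.92 (adjusted p = 0.0448, limma). WT chow read 574 and 514 and KO chow 757 and 601, so the WT cuprizone arrays were the lowest. Glo1, which detoxifies methylglyoxal and lies on chromosome 17 like Trem2, was 312, 255 and 261 in WT and 718, 604 and 511 in KO (1.14 ± 0.15 on the log2 scale, adjusted p = 0.000163, limma). Its chow difference was 0.89 (adjusted p = 0.117). Nnt, a mitochondrial transhydrogenase that some inbred strains lack in part, was 65.0, 94.2 and 95.8 in WT and 145, 164 and 147 in KO (0.86 ± 0.13 on the log2 scale, adjusted p = 0.000482, limma), and differed by 0.91 on chow. Chromosomes 3, 7, 13 and 17 each held 10 of the 97 rises, the most of any chromosome, and are picked out for that. These are 1.93%, 1.05%, 2.43% and 1.65% of their tested genes, beside 0.82% over all genes. Falls were most numerous on chromosome 10, at 37 (6.51%), beside 2.98% over all genes. Glo1, H2-T24, Treml4, Apobec2 and 1700001C19Rik were the named rises on chromosome 17. The same chromosome held 22 falls, Trem2 among them, which is 3.62% of its tested genes. Of the 200 tested genes nearest Trem2, 100 on either side, 5 were called higher and 10 lower. Glo1 lies outside those 200.

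One rise was a probe set annotated to a microRNA. Mir674 measured 67.8, 75.9 and 56.1 in WT and 112, 120.4 and 116 in KO (0.82 ± 0.14 on the log2 scale, adjusted p = 0.00215, limma). The chow arrays lay between, with 88.1 and 109 in WT and 97.2 and 76.7 in KO. Which transcript the probe set reads was not checked here, so the value is not given as that of a mature strand. The 2 mature strands are shown because the seed, bases 2 to 8 in capitals, is what pairs with targets. They lie on the plus strand at chr2:117185151-117185172 and chr2:117185186-117185207 (RefSeq, GRCm38.p6).
mmu-miR-674-5p: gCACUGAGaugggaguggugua
mmu-miR-674-3p: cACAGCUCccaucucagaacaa

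On normal chow, with fewer arrays, fewer genes were called. There were 8 (0.0676% of 11830), of which 6 were lower (0.0507%) and 2 higher (0.0169%), and 1244 had an unadjusted p under 0.05 (limma). This comparison had 2 against 2 arrays, and its median standard error was 0.17 on the log2 scale against 0.14 under cuprizone. Leaving out KO control 1 raised the chow count to 701, so the count depends on that array. Of the 8, 6 were also called under cuprizone in the same direction: Trem2, the clone G530011O06Rik, Mid1, Lrmda, Rasgrf2 and Nnt. Mid1, an X-linked ubiquitin ligase, was 247, 353 and 312 in WT and 37.4, 35.5 and 60.0 in KO under cuprizone and 253 and 413 in WT and 55.9 and 51.0 in KO on chow. Lrmda, a regulator of melanocyte differentiation, was 147, 147 and 329 in WT and 32.9, 40.3 and 32.9 in KO under cuprizone. G530011O06Rik, picked out after its values were seen, differed by -5.57 under cuprizone and -6.20 on chow, more than Trem2 on both. The 353 genes called lower under cuprizone had a median of -0.15 on chow and the 97 called higher one of 0.05. Eif2s3y, on the Y chromosome, was low in KO chow, at 60.1 and 72.4 against 257 and 258 in WT. Under cuprizone it overlapped, at 142, 193 and 203 in WT and 212, 98.0 and 196 in KO. The chow groups thus differed in Y-linked signal, whose part in the chow difference was not tested.

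Whether the genotype difference under cuprizone differed from that on chow was tested for every gene. It did for 27 genes (0.228%), 22 towards lower (0.186%) and 5 towards higher (0.0423%), with 1192 at an unadjusted p under 0.05 (limma). The 2 comparisons share no array, but both rest on the same spread over all 22. Of the 27, 25 were also called under cuprizone, all in the same direction. The test of the difference contains the cuprizone comparison and its 6 arrays, which favours this overlap. The lowest adjusted p-values were those of Mmp12 (-2.82 ± 0.21, adjusted p = 2.66e-07), Fam20c (-2.10 ± 0.18, adjusted p = 2.78e-06), Lgals3 (-1.98 ± 0.20, adjusted p = 2.15e-05) and Itgax (-2.88 ± 0.36, adjusted p = 0.000375). Itgax, Axl, Clec7a, Lpl, Csf1, Gpnmb and Igf1 were the 7 late DAM members called here. Trem2, Mid1 and Rasgrf2 were not called. With KO control 1 left out the test gave 265 genes, and with WT control 1 left out 6.

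**Figure D5:**
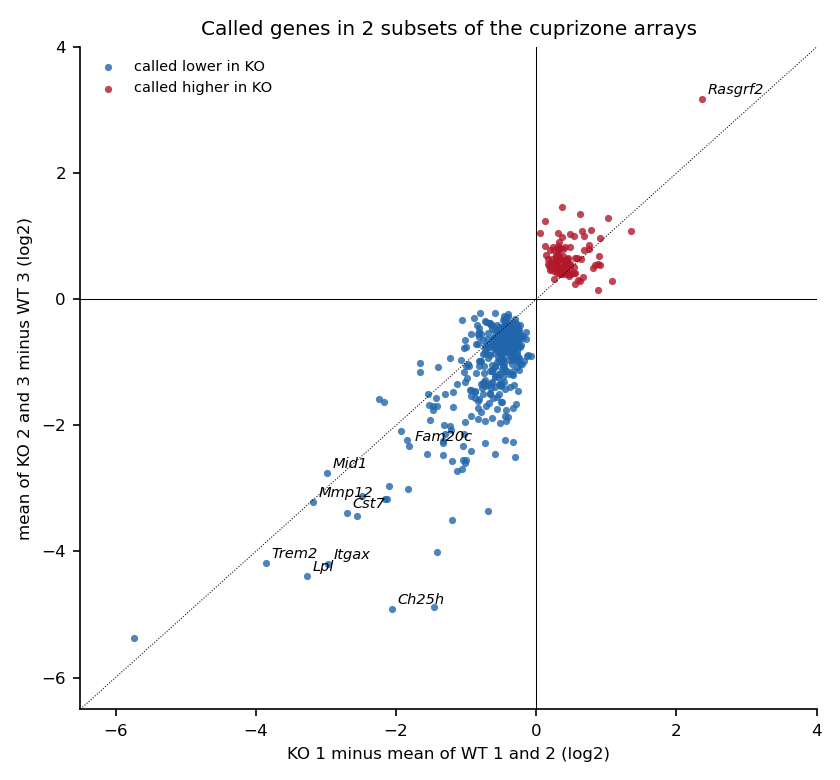
The 450 called genes, with KO 1 minus the mean of WT 1 and 2 on the horizontal axis and the mean of KO 2 and 3 minus WT 3 on the vertical axis, both log2; the dotted line marks equal values. Most blue points lie below the line, so the second subset shows the larger falls, as for Ch25h at -2.06 and -4.91, while Mmp12, at -3.19 and -3.21, lies on it.

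The same genes were set side by side in the subsets of like immediate-early level. All 450 called genes had the same sign in both subsets, and 149 differed at least 1.5-fold the same way in both, 136 of them lower. Choosing the genes on these arrays favours both counts. How many of all genes tested meet the 1.5-fold rule was not counted. Mmp12 gave -3.19 and -3.21, Mid1 -2.98 and -2.76 and Trem2 -3.86 and -4.19. For late DAM genes the median was -1.20 in the first subset and -2.33 in the second. WT 3 was the highest of the WT arrays for 251 of the 353 genes called lower and for 37.6% of all genes. It was at least 2-fold above the mean of WT 1 and 2 for 44 of the 353 and for 159 of all genes tested. With KO 1 as the only KO array, against WT 1 and 2, the fit called 83 genes, 72 of them among the 450, and 14 of the 21 late DAM genes.

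Arrays outside the comparison give the level of the same genes elsewhere, as values only. Of the 353 genes called lower, 335 had all KO cuprizone arrays below all 3 WT arrays given both additives, as had 14.1% of all genes tested; the KO arrays are those on which the 353 were chosen. The other 6 KO arrays carry contradictory labels, the title giving one diet and the remaining fields another, and were kept as set A and set B. For 234 of the 353, all 6 lay below all 3 WT cuprizone arrays (5.77% of all genes tested), and for 56 of the 97 genes called higher all 6 lay above (3.64%). The genes had been chosen on the same WT cuprizone arrays, which favours these counts. Itgax, for one, averaged 704 in WT given both, 50.8 in WT given Covi-Ox, 23.6 in set A and 36.2 in set B (geometric means, n = 3). Csf1 averaged 1043 in WT given both and 324 with Covi-Ox alone, and 168 in set A and 359 in set B.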

How the data were processed

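RNA of sorted microglia was measured on Affymetrix mouse gene arrays. The authors deposited probe set intensity on a linear scale, made with RMA, per the submitters' processing notes; the RMA version is not given in the sources used here. RMA aligns the distributions of the arrays, which hides any change in total RNA per cell. Values ran from 1.62 to 11568, with 2 missing cells. The number of arrays limits the precision.

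The log2 of the deposited intensity was taken. Of 28098 probe sets, 21640 have 1 gene in the platform table, 1321 have several and 5137 are unlisted and unnamed here; only the first were used, each gene by the probe set of highest mean. Kept were genes that exceeded the 50th percentile of 2 or more arrays. All 22 arrays entered 1 limma 3.58.1 model (R 4.3.3) of 8 group means, where 14 degrees of freedom remained and the prior added 5.49. The 3 comparisons were the genotype difference under cuprizone, on chow, and the difference between them. Tests are two-sided, adjusted by Benjamini-Hochberg over all genes and called under 0.05; errors are standard errors.

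The comparison, its 39 gene lists (25 pathway lists and 14 marker lists) were chosen with earlier results of these data known. Named were the 15 largest called rises and 15 largest called falls without overlap (no clones or unnamed loci), up to 5 called members of each list, called genes among the 15 tested on either side of Trem2, and a short set of genes named whatever their values; 1 item of the rule is not reported here. Lists were described by counts and medians, with no test. Replicate numbers were checked for pairing by the correlation of deviations from group means: same-numbered cuprizone arrays gave 0.25, -0.23 and 0.10, so they were taken only as an alternative. Promoter windows and microRNAs came from RefSeq tables (GRCm38.p6); no build is named for the array. In data simulated with these groups on 11830 genes, 61.2%, 95.5% and 100% of genes changed 1.5-, 2- and 4-fold under cuprizone were called, with 12 false calls. Whether these figures hold where arrays are displaced together, as those low in immediate-early genes were, was not tested. They are therefore not read as the recovery or false calls of the comparison itself. Alternatives were the replicate block, the arrays in the fit, filters, normalization, probe set choice, limma's trend and array weights, thresholds, leaving out each array, and the immediate-early genes.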

Additional observations from a re-analysis of the deposited data

Results flagged for a closer look

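For 15 named genes the genotype difference under cuprizone departed from that on chow by a test of the difference itself (limma, adjusted over all 11830 genes); values are the first minus the second on the log2 scale. The test rests on 2 chow arrays per genotype.

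Towards lower in KO these were Itgax (-2.88), Mmp12 (-2.82), Bhlhe40 (-2.77), Gpnmb (-2.77), Lpl (-2.56), Axl (-2.19), Capg (-2.15), Fam20c (-2.10), Clec7a (-1.85), Csf1 (-1.85), Olr1 (-1.61), Gla (-1.39) and Cxcl16 (-0.80). Towards higher they were Csmd3 (0.92) and Eif2s3y (1.81). For Eif2s3y the KO chow arrays were the low ones, at 60.1 and 72.4, and KO cuprizone 2 was the lowest of the cuprizone arrays at 98.0.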

How the results depend on the processing

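Under cuprizone the main count was 450. It moved by over 1.5 times with the 6 arrays alone (39, of which 38 were among the 450), arrays centred on their median (711), a required fold of 2 (94), a threshold of 0.01 on the adjusted p (147), without the 3 arrays low in immediate-early genes (83) and with each array's mean of those genes as a covariate (833). Leaving out each array gave 207 to 529. It stayed closer with no filter (356), a 75th percentile filter (503), quantile normalization (408), the mean of all probe sets (446), trend and robust (481) and array weights (461). The genes were not all the same: in that order 330, 368, 333, 434, 438 and 317 of them were among the 450. On chow the 8 calls became 5 with the 4 arrays alone, with array weights and at an adjusted p under 0.01, and 5 to 701 with an array left out. For the difference between diets the 27 became 4 with the arrays compared alone, 12 with array weights, 7 at an adjusted p under 0.01 and 78 with the covariate, and 6 to 265 with an array left out. The arrays-alone fits have fewer residual degrees of freedom; otherwise the cause was not tested. Where 1 array is left in a chow group or, without the 3 arrays, in KO cuprizone, it is assumed to vary like the rest.

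The replicate number as a block gave 402, 7 and 20 calls. The numbers did not pair the arrays, since KO 2 and WT 2 deviated in opposite directions. No named gene changed sign under an alternative where it was called in either fit. Among named genes not called in either fit, 9 values did change sign. Of 91 named called genes 46 kept the call whichever cuprizone array was left out.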
